A study of Mus musculus with 4 samples.

Results

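Distal elements that gain or lose accessible chromatin with Hedgehog (HH) signaling are candidate places where GLI proteins act on limb genes. The 484 regions described here were distal regions called as accessible in both WT libraries and in neither Shh-/- library. They were selected on the presence or absence of ATAC-seq peaks: all peaks of the 4 libraries were joined wherever they shared 1 bp or more, which gave 44692 regions, and a member had a peak from each WT library, no peak from either Shh-/- library, and no overlap with the window from 2 kb before to 1 kb after any transcription start site (TSS). In all, 27184 regions were distal and 1543 of them were called in both WT libraries, so the members made up 31.4% of the distal regions that WT called reproducibly. The same rule without the distal criterion gave 934 regions, of which 450 touched a promoter window. At promoters, regions called in both WT libraries lacked an Shh-/- call in 5.6% of 8031 cases.

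ATAC-seq uses the Tn5 transposase to cut open chromatin and add adapters to the fragments. Each of the 4 libraries came from 1 pair of posterior forelimb bud pieces of an individual mouse embryo at E10.5 (35 somites), on a Swiss Webster background, with 5000 cells per reaction and 18 PCR cycles. The 2 WT embryos had an intact Shh gene, and the 2 Shh-/- embryos carried the null allele Shh tm1amc on both chromosomes, so that they lacked the ligand throughout development. The tissue was a mixture of mesenchyme, ectoderm and vessel cells, so a smaller share of accessible cells and lower accessibility per cell cannot be told apart. Of 6 limb mesenchyme genes, Prrx1 had a promoter peak in 4 of 4 libraries, Twist1, Msx1 and Lhx9 in 3, and Hand2 and Tbx5 in WT replicate 1 only. Tbx5 marks the forelimb. Of the hindlimb genes, Pitx1 had one in WT replicate 1 and Tbx4 in WT replicate 1 and Shh-/- replicate 2. Further, of 9 markers of ectoderm, endothelium, blood, muscle and glia, 6 had a promoter peak in no library (Krt14, Trp63, Cdh5, Pecam1, Gata1 and Myod1), while Epcam and Sox10 had one in 1 library and Pax3 in 2.

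In the limb bud, Sonic hedgehog (SHH) is made by posterior mesenchyme of the zone of polarizing activity. GLI transcription factors carry the signal to the genome. Without ligand they are processed to repressors, and with ligand the repressors are lost and activators form. Many limb enhancers lie far from the genes they control, inside introns or between genes, which is why distal regions are described apart from promoters. Where a library has no peak, the caller did not report one, and the chromatin there may still be open.

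The lists differed in size, from 5589 peaks in Shh-/- replicate 1 to 39080 in WT replicate 1, the others being 11973 for WT replicate 2 and 18459 for Shh-/- replicate 2. They hold a score for each peak but no read counts, so the depth behind each call is unknown. The number of members moves with the lists: it was 2118 without WT replicate 1, 18617 without WT replicate 2, 519 without Shh-/- replicate 1 and 1038 without Shh-/- replicate 2. With every list limited to its best 5589 peaks, 35 distal regions met the rule, and they overlapped 6 members of the full lists.

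The sequences of a few members are printed first. Each is 200 bp of the mm10 plus strand, centered on the summit of the better ranked WT peak. Capitals mark every match to the GLI consensus TGGGTGGTC on either strand with at most 1 mismatch, so a match on the minus strand reads GACCACCCA. An exact match occurred in 5 of the 484 windows (1.03%), against 100 of the 27184 distal regions (0.368%), and 4 of these are shown. They lie in an intron of Nup210 (chr6:91044471-91044670), in an intron of Rexo1 (chr10:80547465-80547664), between genes on chromosome 13 (chr13:98573676-98573875) and between genes near Smug1 (chr15:103182366-103182565). The remaining window, in Tmem184b, overlaps a UTR and is not printed.

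Nup210 intron: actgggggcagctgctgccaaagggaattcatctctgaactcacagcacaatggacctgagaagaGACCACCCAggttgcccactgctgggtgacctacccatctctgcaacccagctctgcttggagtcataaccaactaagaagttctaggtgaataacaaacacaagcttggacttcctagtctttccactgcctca
Rexo1 intron: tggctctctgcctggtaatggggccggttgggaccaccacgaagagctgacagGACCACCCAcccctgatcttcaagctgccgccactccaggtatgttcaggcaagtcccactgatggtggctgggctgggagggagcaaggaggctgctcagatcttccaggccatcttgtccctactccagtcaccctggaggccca
Chromosome 13 intergenic: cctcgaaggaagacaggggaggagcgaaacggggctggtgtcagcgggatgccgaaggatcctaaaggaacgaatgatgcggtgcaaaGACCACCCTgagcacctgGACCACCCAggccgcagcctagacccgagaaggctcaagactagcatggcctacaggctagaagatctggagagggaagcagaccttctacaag
Smug1 intergenic: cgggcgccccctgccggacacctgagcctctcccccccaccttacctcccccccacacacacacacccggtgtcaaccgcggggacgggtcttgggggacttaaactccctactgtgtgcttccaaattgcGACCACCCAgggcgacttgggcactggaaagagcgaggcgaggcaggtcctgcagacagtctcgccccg

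The chromosome 13 window holds the consensus on the minus strand 10 bp from its summit and, on the other side of the summit, a second match that differs by T1A, counting positions from 1 at the 5′ end of the consensus. It was the 1 member with more than 1 match.

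The next set is shown because it is the group of members at a gene that responds to SHH in the limb. Cntfr encodes the ligand-binding receptor for ciliary neurotrophic factor, and the summits of all 3 are intronic (chr4:41659362-41659561, chr4:41663733-41663932 and chr4:41679162-41679361).

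Cntfr intron A: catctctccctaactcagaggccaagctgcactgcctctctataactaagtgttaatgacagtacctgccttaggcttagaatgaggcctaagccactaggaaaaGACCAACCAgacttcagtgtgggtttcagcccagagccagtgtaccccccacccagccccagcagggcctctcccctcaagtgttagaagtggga
Cntfr intron B: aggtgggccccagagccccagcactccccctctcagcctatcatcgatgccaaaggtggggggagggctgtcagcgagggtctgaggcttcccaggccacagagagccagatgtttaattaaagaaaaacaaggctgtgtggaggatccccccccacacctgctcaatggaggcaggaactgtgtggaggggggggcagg
Cntfr intron C: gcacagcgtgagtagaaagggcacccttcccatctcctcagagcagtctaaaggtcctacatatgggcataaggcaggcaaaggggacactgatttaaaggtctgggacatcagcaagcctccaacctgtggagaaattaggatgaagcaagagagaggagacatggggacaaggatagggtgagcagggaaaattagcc

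Window A had a GLI match that differs from the consensus by G4T and lies 9 bp from the summit. Windows B and C had none.

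The last set holds the 3 members with the highest mean WT score percentile, in an intron of Sos2 (chr12:69654116-69654315), in an intron of Gm14412 (chr2:177320973-177321172) and between genes on chromosome 5 (chr5:74155981-74156180), and the best ranked member of the largest cluster, in an intron of Mroh2a (chr1:88230443-88230642).

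Sos2 intron: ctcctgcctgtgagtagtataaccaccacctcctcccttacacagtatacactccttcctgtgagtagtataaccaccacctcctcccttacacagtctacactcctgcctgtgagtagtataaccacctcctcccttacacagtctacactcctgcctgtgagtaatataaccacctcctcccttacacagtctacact
Gm14412 intron: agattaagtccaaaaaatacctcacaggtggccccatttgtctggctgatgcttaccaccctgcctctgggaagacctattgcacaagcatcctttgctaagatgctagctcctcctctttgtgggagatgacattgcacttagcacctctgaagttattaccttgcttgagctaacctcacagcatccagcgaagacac
Chromosome 5 intergenic: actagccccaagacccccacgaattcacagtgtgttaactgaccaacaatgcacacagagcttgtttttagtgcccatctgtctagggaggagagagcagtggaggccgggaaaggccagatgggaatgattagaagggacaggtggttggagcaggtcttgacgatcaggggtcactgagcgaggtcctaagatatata
Mroh2a intron: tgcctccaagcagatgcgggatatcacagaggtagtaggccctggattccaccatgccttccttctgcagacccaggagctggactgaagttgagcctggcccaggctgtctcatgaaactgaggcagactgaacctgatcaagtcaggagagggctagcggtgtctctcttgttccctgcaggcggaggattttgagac

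Words of 16 bases that recur inside the window covered 94.0% of the Sos2 sequence. Only 2 of the 484 members had at least 50% of their window covered in this way, the other being a member near Rap1gap (90.0%), and 7 of the 1059 distal regions called in both WT libraries and in an Shh-/- library (0.661%) did. The part of recurring sequence in these calls was not tested.

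The members had lower scores in the WT lists than the regions that were also called in Shh-/- libraries. By the format of the peak caller the score is 10 times the −log10 of the q-value, a scale the files do not state. It was ranked only within its own list, while the score limit of 50 used below was the same for every list. Member scores ran from 14 to 393 in WT replicate 1, where the median was 41.5. They ran from 14 to 255 in WT replicate 2, where it was 26.0. The lowest score in either WT list, 14, was reached by 12 members in WT replicate 1 and by 34 in WT replicate 2. In the Shh-/- lists the lowest scores were higher, 19 in replicate 1 and 18 in replicate 2. The median score of the whole list was 45 and 49 in WT replicates 1 and 2, and 69 and 78 in Shh-/- replicates 1 and 2. The part of these differences in the missing Shh-/- calls was not tested. Expressed as a percentile of its own list, the median member stood at 48.7% in WT replicate 1 and at 20.1% in WT replicate 2. Regions called in all 4 libraries stood at a median of 88.2% and 56.3%, and regions called in both WT libraries and Shh-/- replicate 2 at 77.7% and 41.7%. Over all distal regions the medians were 33.7% and 20.1%, below the members in WT replicate 1 and level with them in WT replicate 2. In 233 members both percentiles were under 50% and in 37 both were over it.

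**Figure D1:**
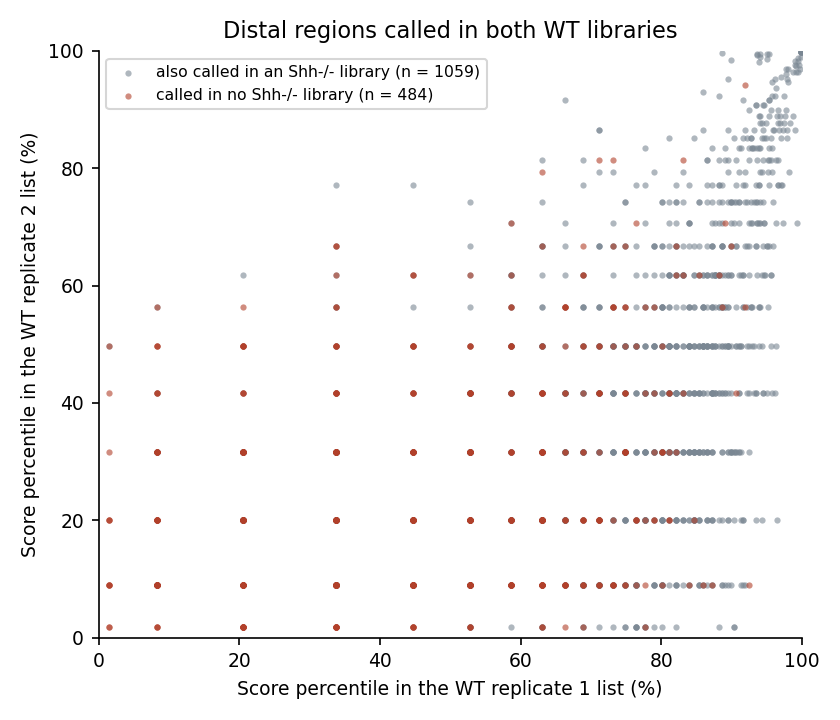
Score percentile of each distal region called in both WT libraries, in the WT replicate 1 list (x axis, %) and the WT replicate 2 list (y axis, %). Red points are the 484 members and gray points the 1059 regions also called in an Shh-/- library; scores come in steps, so points overlap, and the red points gather toward the lower left while the upper right is gray.

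The share of regions without an Shh-/- call fell steadily as the WT score rose. Among the 309 regions in the lowest quintile of the mean WT percentile, 245 (79.3%, 95% Wilson interval 74.4 to 83.4) were members. The next quintiles held 43.4%, 20.7% and 9.74%, and in the highest quintile 11 of 308 regions (3.57%, 2.01 to 6.28) were members. Absence from Shh-/- replicate 2, the larger mutant list, went from 81.2% to 6.17% across the quintiles, and absence from Shh-/- replicate 1 from 95.8% to 30.8%. The membership of a region therefore followed its rank in WT, and the part of list size and depth in this was not tested. Because the rule used these calls, the shares are a description and no test was made of them.

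**Figure D2:**
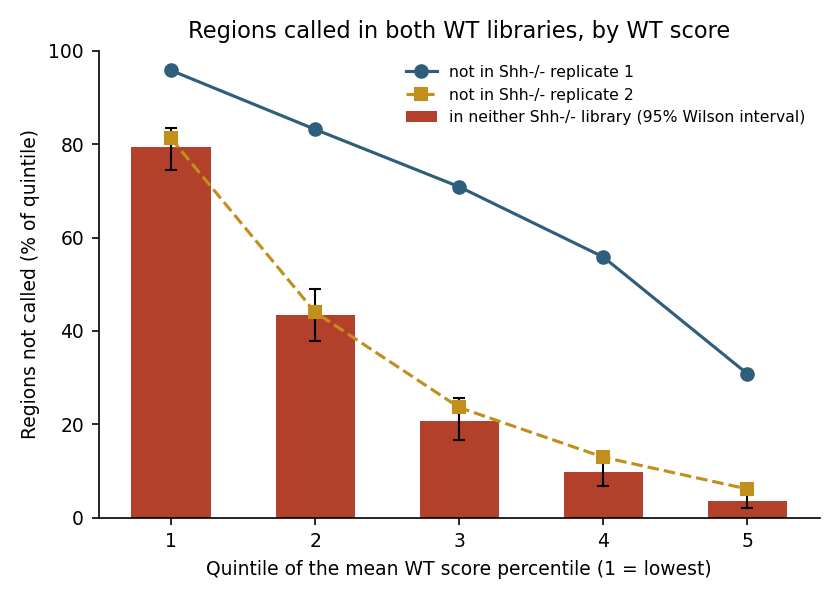
Share of distal regions called in both WT libraries (y axis, %) that were absent from both Shh-/- lists (bars, with 95% Wilson intervals), from Shh-/- replicate 1 (circles) or from Shh-/- replicate 2 (squares), by quintile of the mean WT score percentile (x axis, 1 lowest). The bars fall from 79.3% to 3.57%.

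The members with the highest ranks were few. The Sos2 intron region (chr12:69654064-69654315), in the gene of a RAS guanine nucleotide exchange factor, was scored 369 in WT replicate 1 and 255 in WT replicate 2, and its center lay 27.4 kb from the Sos2 TSS. Its peak ranked 3069 of 39080 and 666 of 11973. The Gm14412 intron region on chromosome 2 was scored 168 and 122, and a second region in the same gene, 6.11 kb from its TSS, was scored 93 and 122. The intergenic region on chromosome 5 was scored 275 and 84, and its nearest coding gene, Rasl11b, started 39.2 kb away. A pair of intergenic regions on chromosome 13 followed, 33.0 kb from the TSS of Gpx5, a glutathione peroxidase gene, with scores of 298 and 75, and 41.4 kb from Trim27, with scores of 369 and 57. The remaining 4 of the first 10 lay in introns of Mroh2a (84 and 122), Nol4 (252 and 66) and Lrrc27 (199 and 66) and between genes 46.7 kb from Spata7 (158 and 75). A score of at least 50 in both WT lists was met by 36 of the 484 members.

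Agreement between the WT libraries was looser in members than in the regions called in all 4 libraries. The summits of the WT peaks of a member were a median of 126.5 bp apart and within 100 bp of each other in 203 members (41.9%). In regions called in all 4 libraries the summits were a median of 71.0 bp apart and within 100 bp in 62.3%. In the 555 regions shared with Shh-/- replicate 2 alone these values were 92.0 bp and 52.4%, and in the 35 shared with Shh-/- replicate 1 alone, 119 bp and 45.7%, close to the members. Spearman's correlation of the WT percentiles was 0.25 across the 484 members, 0.36 across the 555 regions, 0.64 across the 35 and 0.66 across the 469 regions called in all 4 libraries, given as a description because regions share their libraries. The median width was 534 bp (218 to 3433) in members, 979 bp in regions called in all 4 libraries and 323 bp over all distal regions, and a region merged from more libraries is wider by construction.

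To look at the calls in libraries that a choice had not used, distal regions were picked from 1 WT and 1 Shh-/- library and looked up in the remaining library of each genotype. Of the 2076 regions called in WT replicate 2 but not in Shh-/- replicate 2, 25% (23.2 to 26.9) had a call in WT replicate 1 and 1.88% (1.38 to 2.56) in Shh-/- replicate 1. Of the 2639 regions called in WT replicate 2 but not in Shh-/- replicate 1, 39.4% (37.5 to 41.2) had a call in WT replicate 1 and 22.8% (21.3 to 24.5) in Shh-/- replicate 2. When the choice was made from WT replicate 1, the order depended on the mutant library. Against Shh-/- replicate 2, the 18780 regions had a call in WT replicate 2 in 2.76% of cases and in Shh-/- replicate 1 in 0.969%. Against Shh-/- replicate 1, 4.91% of 21144 had a call in WT replicate 2 and 12.04% in Shh-/- replicate 2. In each of the 4 choices the higher share was in the longer of the 2 lists looked up.

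With equal list sizes the same lookups gave differences in both directions. Picked from WT replicate 2 and Shh-/- replicate 2, 28.3% (23.2 to 34.0) of 265 regions had a call in WT replicate 1 and 29.4% (24.3 to 35.2) in Shh-/- replicate 1. Picked from WT replicate 1 and Shh-/- replicate 2, 31.5% of 238 had a call in WT replicate 2 and 50.8% in Shh-/- replicate 1. The other 2 choices kept a higher share in WT. They gave 38.2% (31.4 to 45.5) against 34.3% (27.7 to 41.5) of 178 regions and 29.6% (24.0 to 35.8) against 18.7% (14.2 to 24.2) of 230. The share was thus higher in the other WT library than in the other Shh-/- library in 2 of 4 choices at equal size. With the full lists it was higher in 3 of 4. These counts do not weigh the intervals, some of which overlap, and the choices reuse the same libraries.

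Members lay closer to a TSS than distal regions as a whole, but the regions shared with Shh-/- replicate 2 alone lay as close. Their centers were a median of 8.90 kb (1.22 to 270) from the nearest TSS, against 10.9 kb for the 1059 regions that also had an Shh-/- call and 12.1 kb for all distal regions. The median was 8.86 kb in the 555 regions shared with Shh-/- replicate 2 alone and 12.7 kb in those called in all 4 libraries. Measured to protein-coding TSSs it was 13.5 kb in members, 19.5 kb in the 1059 regions and 21.3 kb over all distal regions. In the 555 regions it was 16.4 kb. A TSS was under 5 kb away for 141 members (29.1%), 5 to 20 kb for 231, 20 to 100 kb for 105 and over 100 kb for 7. The nearest TSS belonged to a protein-coding gene in 314 members (64.9%, 60.5 to 69.0) and in 49.8% (46.8 to 52.8) of the regions with an Shh-/- call.

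An exon was overlapped by 161 members (33.3%, 29.2 to 37.6), an intron only by 178 (36.8%, 32.6 to 41.2), and 145 (30.0%, 26.0 to 34.2) were intergenic. Regions called in both WT libraries and in an Shh-/- library overlapped an exon in 19.6% (17.4 to 22.1) and were intergenic in 43.2% (40.3 to 46.3). Over all distal regions the intergenic share was 31.8%, near that of members, and the exon share was 21.1%. Regions called in all 4 libraries were intergenic in 50.1% and overlapped an exon in 12.8%. The 555 regions shared with Shh-/- replicate 2 alone lay between these and the members, at 38.02% and 25.045%. At the summit itself, 247 members were in an intron, 147 between genes, 68 in an exon outside UTRs and 22 in a UTR. The WT score was also split into classes, within which members still ranked lower, with median percentiles of 32.4% against 41.6% in the lower class and 57.5% against 67.9% in the upper. In the lower 2 quintiles of the WT percentile, exons were overlapped by 128 of 379 members (33.8%) and 48 of 239 non-members (20.1%), and in the upper 3 quintiles by 33 members (31.4%) and 160 of 820 non-members (19.5%). Non-members were wider in both classes (medians of 821 against 518 bp and 919 against 668 bp). No test was made, since neighboring regions are not independent and the members were chosen on calls in the same libraries.

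**Figure D3:**
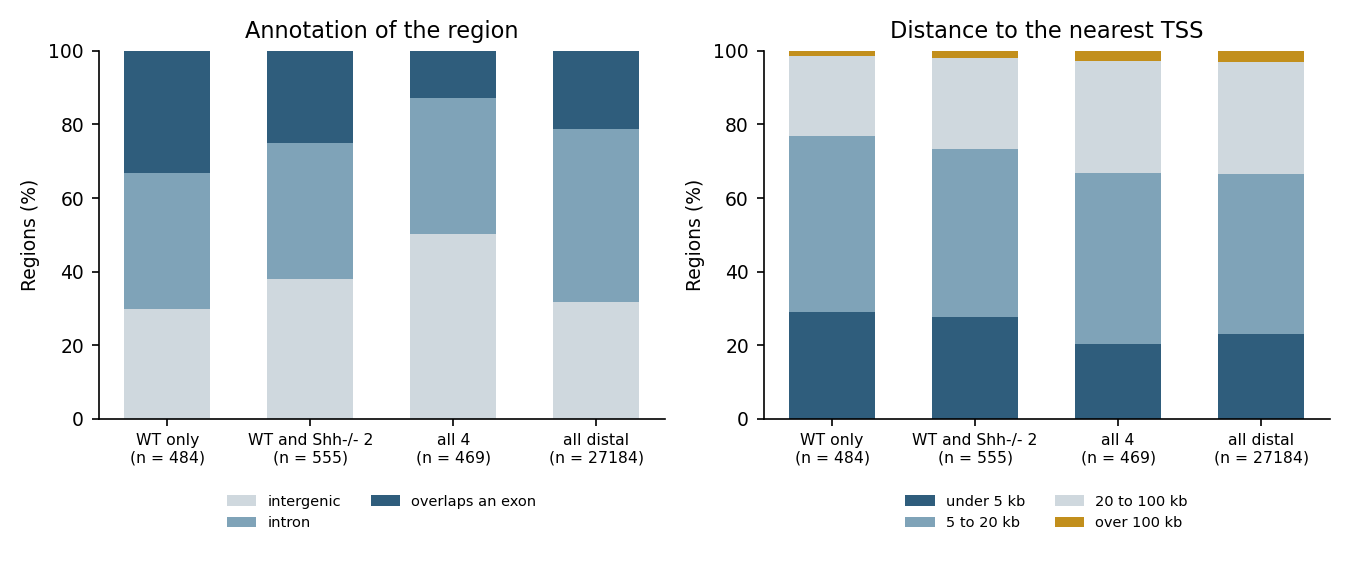
Annotation (left) and distance of the center to the nearest TSS (right) as a share of regions (y axis, %) for members, regions called in both WT libraries and Shh-/- replicate 2, regions called in all 4 libraries, and all distal regions. Members overlap an exon in 33.3%, the all-4 class in 12.8%.

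Members had a lower observed-to-expected CpG ratio and fewer SP/KLF and NFY words than the regions with an Shh-/- call. Against all distal regions, neither the CpG ratio nor the share with the SP/KLF word was lower. The median GC content of the summit windows was 55.5% (25.5 to 78.5) in members and 57.0% in regions with an Shh-/- call, and the median observed-to-expected CpG ratio was 0.276 against 0.484. Over all distal regions these medians were 53.0% and 0.223. They were 60.5% and 0.576 in the 555 regions shared with Shh-/- replicate 2 alone, and 54.5% and 0.434 in regions called in all 4 libraries. In the 35 shared with Shh-/- replicate 1 alone they were 50.5% and 0.178. Among the distal regions called in both WT libraries, 17.5% (13.7 to 22.2) of the quintile with the highest GC content were members, against 30.8% to 39.8% in the other quintiles. The Shh-/- lists went opposite ways here. From the lowest to the highest GC quintile, absence from Shh-/- replicate 1 rose from 52.8% to 80.5%. Absence from Shh-/- replicate 2 was 36.2% in the lowest, 42.1% in the middle and 17.9% in the highest. At least 50% of the window was soft-masked as repeat in 19 members (3.93%, 2.53 to 6.05) and in 3.49% of the regions with an Shh-/- call. In addition to GLI, 20 motifs were searched as exact words on both strands. The SP/KLF word GGGCGGGG, bound by GC-box factors, was present in 24 members (4.96%, 3.35 to 7.27), in 129 regions with an Shh-/- call (12.2%, 10.3 to 14.3) and in 2.43% of all distal regions. The NFY word CCAATCA was present in 10 members (2.07%, 1.13 to 3.76), in 5.38% (4.18 to 6.91) of the regions with an Shh-/- call and in 2.28% of all distal regions. NRF1 (GCGCATGCG) was found in 0 of 484 members, which allows a share of up to 0.620% by 3 counts and 0.787% by the Wilson method. It was found in 12 of 1059 regions with an Shh-/- call and in 0.121% of all distal regions. The 12 were all in the upper 3 score quintiles, with 0 among the 239 non-members of the lower 2, where 379 of the members lay. The LIM-homeodomain core TAATTA, read by many homeodomain factors, was in 22 members (4.55%, 3.02 to 6.79), 7.55% (6.11 to 9.30) of regions with an Shh-/- call, 10.7% of regions called in all 4 libraries and 5.66% of all distal regions. In the lower 2 score quintiles the SP/KLF word was in 3.96% of members and 10.46% of non-members, TAATTA in 4.49% and 8.79%, and the NFY word in 1.06% and 3.77%. In the upper 3 they were in 8.57% and 12.7%, in 4.76% and 7.20%, and in 5.71% and 5.85%.

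GLI matches with at most 1 mismatch were about as frequent in members as elsewhere, while exact matches were rare in every set. With at most 1 mismatch the consensus was found in 32 members (6.61%, 4.72 to 9.18), in 63 of 1059 regions with an Shh-/- call (5.95%, 4.68 to 7.54) and in 6.01% of all distal regions. Exact matches were in 1.03% (0.442 to 2.40) of members, 0.378% (0.147 to 0.967) of regions with an Shh-/- call and 0.368% (0.303 to 0.447) of all distal regions. The first 2 of these shares rest on 5 and 4 regions, and the difference was not tested. Of the 33 matches in members, 23 (69.7%) were centered within 50 bp of the summit, against 901 of 1690 (53.3%) over all distal regions. Among the 28 matches with a mismatch, position 8 was the one replaced in 9 (32.1%), and over all distal regions it was replaced in 23.03%. These contrasts in place and position rest on few matches in members and were not tested. A member in an intron of Zbtb16, a zinc finger gene with a role in limb patterning, had a match with T8C 3 bp from its summit and scores of 38 and 20. It lay 106 kb from the Zbtb16 TSS and is named after its values were seen.

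**Figure D4:**
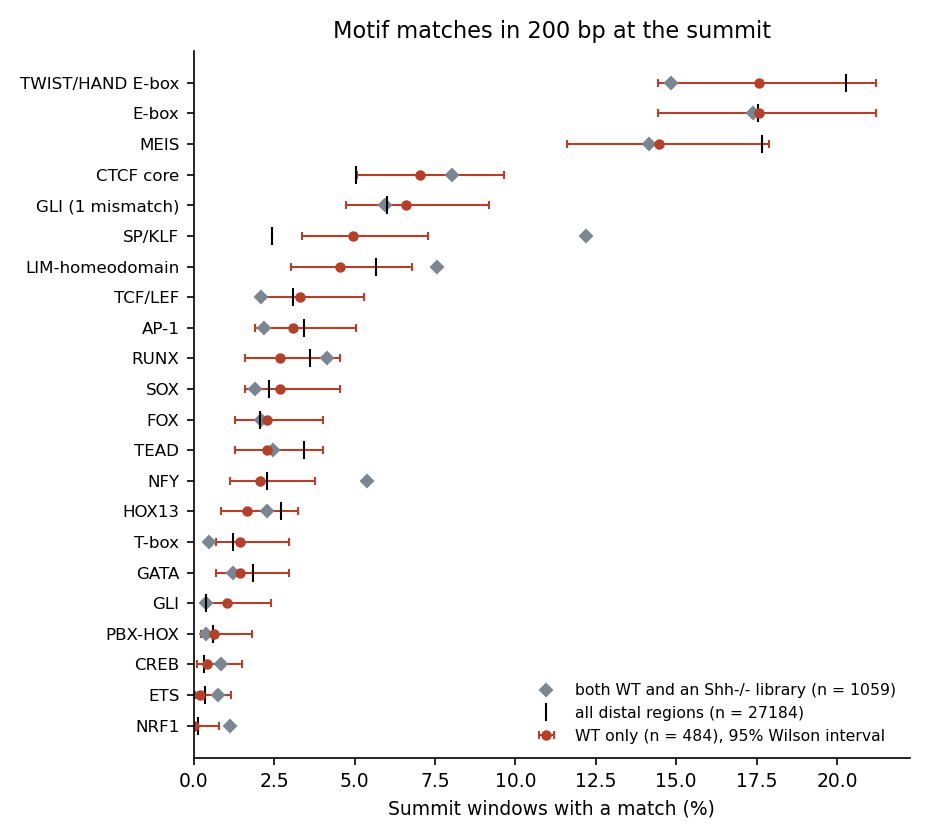
Share of 200 bp summit windows with a match (x axis, %) for each motif (y axis) in members (red, with 95% Wilson intervals), in regions called in both WT libraries and an Shh-/- library (gray diamonds) and in all distal regions (ticks). The GLI consensus with at most 1 mismatch is at 6.61%, 5.95% and 6.01%, and the SP/KLF word is at 4.96% in members and 12.2% in the gray set.

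Within 100 kb of genes that respond to SHH in the limb lay 5 of the 484 members. Of 25 genes that respond to SHH in the limb, 3 (12%) had a member centered within 100 kb of a TSS, against 7.94% of 21911 protein-coding genes. These windows held 165 distal regions, of which 3.03% were members, against 1.78% of all distal regions. They held 16 distal regions called in both WT libraries, of which 5 (31.25%) were members, close to the share over the genome (31.4%). Such a region, without which a gene could have no member, was present for 9 of the 25 genes, Cntfr, Jag1 and Tbx2 among them, and not for Gli1, Ptch1, Hhip, Grem1, Hand2, Hoxd13 or Shh.

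The 5 were at Cntfr, Jag1 and Tbx2. At Cntfr, the 3 members, of which A and B also overlapped an annotated exon, lay 36.1, 31.8 and 16.3 kb downstream of the TSS. That with window A was scored 76 in WT replicate 1 and 20 in WT replicate 2, that with B 32 and 34, and that with C 32 and 20. They were the only distal regions that WT replicate 2 called within 100 kb of the Cntfr TSS, where WT replicate 1 called 16, Shh-/- replicate 1 called 3 and Shh-/- replicate 2 called 2. The nearest Shh-/- peaks to the 3 members were 11.96, 7.69 and 6.16 kb away. At Jag1, which encodes a Notch ligand, the member (chr2:137114161-137115641) was scored 76 and 41 and began 2 bp outside the promoter window, 1.74 kb downstream of the TSS. A peak of Shh-/- replicate 2 lay 0.661 kb from it and a peak of Shh-/- replicate 1 lay 1.05 kb from it. When members with an Shh-/- peak within 1 kb were left out, 4 members near SHH-responsive genes remained. At Tbx2, which encodes a T-box repressor, the member lay 78.1 kb downstream. It was in an intron of the neighboring gene Tbx4, whose TSS was 13.9 kb away, and was scored 53 and 26. The 5 regions thus had scores at or under 76 in WT replicate 1 and at or under 41 in WT replicate 2, and none met a score of 50 in both lists.

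Of 19 components of the HH pathway, 1 (5.26%, against 7.94% of protein-coding genes) had a member within 100 kb. It lay 88.0 kb from the TSS of Disp1, which encodes the transporter-like protein that releases HH ligand, with its center 15.2 kb from the microRNA gene Gm24975, and was scored 38 and 14. Of 7 distal regions that WT called reproducibly near pathway components it was the 1 member (14.3%, against 31.4% over the genome).

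Among 52 limb patterning genes, 6 had a member (11.5%, against 7.94% of protein-coding genes). Of 25 reproducible WT regions near them, 7 were members (28%, against 31.4% over the genome). All are given here. A pair lay in introns of Bmp7, a BMP ligand, at 51.5 kb (scores 20 and 20) and 28.9 kb (53 and 41) from its TSS. Members in introns of Prrx2 (45 and 34), Aldh1a2, the enzyme that makes retinoic acid (45 and 34), and Wnt5a, a WNT ligand of distal mesenchyme (38 and 34), lay 6.17, 26.1 and 2.94 kb from the TSS. The nearest Shh-/- peaks to the Prrx2, Aldh1a2 and Wnt5a members were 1.15, 25.5 and 0.454 kb away. An exonic member of Irx5, an Iroquois homeobox gene, was 1.96 kb from the TSS and was scored 45 and 49. The seventh lay upstream of Lmbr1, the gene whose intron holds the limb enhancer of Shh, at 89.5 kb, but 10.54 kb from Mnx1, and was scored 32 and 20. Of the lists for other cell types, endothelial and blood markers had 3 members among 4 reproducible WT regions within 100 kb (75%), and ectoderm and ridge markers 1 among 6 (16.7%). Muscle progenitor markers had 0 among 2 and neural crest and glia markers 0 among 1, numbers too small to read.

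Some members had another member nearby, the rest stood alone. With centers within 50 kb of the next counted as a chain, 120 members (24.8%, 21.2 to 28.8) had a neighboring member, in 38 pairs, 7 groups of 3, 2 groups of 4 and 1 of 15, and 364 stood alone. Regions called in all 4 libraries had such a neighbor in 19.6% (16.3 to 23.5) and regions called in both WT libraries and Shh-/- replicate 2 in 17.8% (14.9 to 21.2), sets of 469 and 555 regions. Among all 1059 regions with an Shh-/- call, a larger set, the share was 27.3% (24.7 to 30.1). The nearest TSSs of the members belonged to 447 genes, and 25 genes were nearest to 2 or more.

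The largest cluster spanned 73.6 kb of chromosome 1 (chr1:88213975-88287528), from the end of the Ugt1a genes, which encode glucuronosyltransferases, across Mroh2a and Hjurp, the chaperone of the centromeric histone, into Trpm8. Its 15 members had scores of 20 to 148 (WT replicate 1) and 20 to 122 (WT replicate 2). Within this interval the list of WT replicate 1 held 35 peaks and the shorter list of WT replicate 2 held 39, while Shh-/- replicates 1 and 2 had 6 and 5. Per 10000 peaks of the list these are 8.96, 32.6, 10.7 and 2.71. WT replicate 2 had the highest density and Shh-/- replicate 2 the lowest, with WT replicate 1 and Shh-/- replicate 1 between them. Peak lists do not show whether the embryos carried this interval in the same number of copies, and this was not tested. The Shh-/- peaks lay close by, 0.866 to 14.8 kb from the members. In no window of this cluster was another copy found in the genome at 95% identity over 95% of its length, and no GLI match was present. Without the cluster 469 members remained.

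The other clusters were smaller. The Slco4a1 cluster on chromosome 2, in introns of an organic anion transporter gene, held 3 members within 3.40 kb. That span had 3 peaks in each WT list and 0 in each Shh-/- list. It held no region but the members, so its lack of Shh-/- peaks follows from the rule. The Baiap2 and Aatk cluster on chromosome 11 had 8 and 3 WT peaks and 0 Shh-/- peaks across 12.3 kb, which held 7 regions. The Cntfr cluster had 7 and 3 WT peaks and 1 peak in each Shh-/- list. Of the remaining clusters of 3 or more, 5 lay at Rgs3, in a zinc finger gene array at Zfp978 and at Plch2 on chromosome 4, and at C2cd4c and at Mex3d and Mbd3 on chromosome 10. Each of these 5 had 1 or more Shh-/- peaks within its span. WT replicate 2 had more peaks per 10000 than WT replicate 1 in 8 of the 10 clusters, which the rule favors, since each member holds a WT replicate 2 peak and that list was the shorter.

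**Figure D5:**
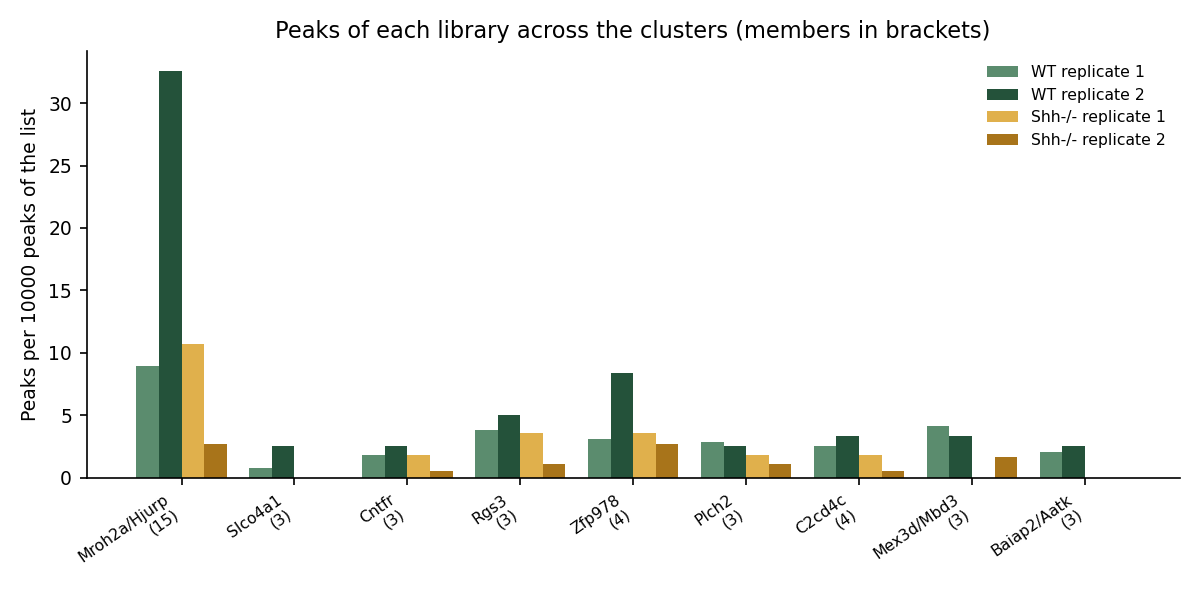
Peaks of each library inside the span of 9 clusters with 3 or more members (x axis, number of members in brackets), per 10000 peaks of the list (y axis). WT replicate 2 stands at 32.6 at Mroh2a/Hjurp, and the Slco4a1 and Baiap2/Aatk clusters have no Shh-/- peak. The Slco4a1 span holds members only, so its lack of Shh-/- peaks follows from the rule.

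Members were spread over all chromosomes but the Y. Chromosomes 4 (60), 2 (58) and 1 (36) held most. As a share of the distal regions called in both WT libraries, members ranged on the autosomes from 16.9% of 65 on chromosome 6 to 47.2% of 72 on chromosome 15, and on the X chromosome 1 of 21 was a member (4.76%). A copy elsewhere in the genome was found for the windows of 9 members (1.86%, 0.981 to 3.50) and 2.83% of the regions with an Shh-/- call. In 8 of the 9 a copy lay within 1 Mb, among them windows near Gm14403, Zfp990 and Gm8178, in arrays of zinc finger genes. Reads from such windows may be split between copies.

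The limits of the rule were close for some regions. The members nearest to an Shh-/- peak lay 21 bp (chr17:56392625-56392870, scores 25 and 34), 43 bp (chr15:82207497-82208295, near Shisa8, 68 and 41) and 99 bp (chr17:56401015-56401689, 60 and 26) from it. Just outside, the regions with the smallest overlap of WT and Shh-/- peaks shared 7 bp (chr1:88272163-88273166, near Hjurp and inside the largest cluster, 45 and 34), 18 bp (chr10:80384250-80385270, 32 and 26) and 21 bp (chr1:62706567-62707281, near Nrp2, 25 and 41). An Shh-/- peak lay within 1000 bp of 51 members (10.54%) and within 10000 bp of 248 (51.2%), and the median distance was 9.38 kb. The members nearest to a promoter window were 2 bp (Jag1), 9 bp (Baz1a, chr12:54984910-54985326, 60 and 41) and 13 bp (Tfap2c, chr2:172547219-172547579, 32 and 34) from it.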

How the data were processed

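The authors made 1 ATAC-seq peak list per library, from paired-end reads on mm10. Per the labels Bowtie2 2.2.5 and MACS2 2.1.0 were used, the cutoff being a q-value of 0.05 with windows of 200 bp. Peaks were called in each library separately. The read filters and any shift of reads to the Tn5 cut are not given in the sources used here. The deposited score of each peak, given with its position and summit, is the authors' own value. Further columns for fold enrichment and significance were 0 throughout and were not used. The lists hold no read counts, so depth and its precision are unknown.

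The titles gave each library's genotype and replicate number. Nothing pairs a WT embryo with an Shh-/- embryo. Peaks were merged, and members chosen, as stated with the results, using GENCODE M21 (basic) on GRCm38.p6, the assembly of mm10. The members, gene lists and motifs were chosen with earlier results of these data known. No test was made: the rule used the calls themselves, and 2 libraries against 2 allow no p-value under 0.333 in an exact permutation test. Intervals were computed by the Wilson method at 95% and cover counting error only. Scores were converted to percentiles within their own list. Sequence features were read in 200 bp around the summit of the better ranked WT peak. Copies were searched with BLAST 2.17.0 at 95% identity over 95% of the window. Distances run from region centers to the TSS. Python 3.11.15, pandas 2.3.3, numpy 2.4.6, SciPy 1.17.1 and matplotlib 3.10.9 were used, and merging and motif search were tested on simulated data.

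Named members were the 10 with the highest mean WT percentile, those in clusters of 3 or more, those within 100 kb of a listed HH gene, those with an exact GLI match, and those at the limits of the rule. Exceptions are stated where they occur, and 1 cluster of 3 is counted but not reported here. Alternatives were a score of at least 50, equal list sizes, other merging distances and promoter windows, protein-coding TSSs and autosomes. Others were no Shh-/- peak within 1 kb, other motif and cluster settings, and leaving out each library. Those without members that have another copy, and without the largest cluster, were added after seeing the data.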

Additional observations from a re-analysis of the deposited data

How the results depend on the processing

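The number of members rested on the lists. It was 73 with a score of at least 50 in every list and 35 with equal list sizes, and it ran from 519 to 18617 when 1 library was left out. Other merging distances, promoter windows, TSS sets and the autosomes gave 339 to 555. The score limit also removed Shh-/- peaks, and the 73 regions under it overlapped 36 members of the full lists. For these 73 the median distance to a TSS was 10.45 kb, the share with a GLI match 12.3% and the repeat share 9.59%. The share with another of them within 50 kb was 16.4%, and 0 were near an SHH-responsive gene. With equal list sizes 37.1% were intergenic, the median GC content was 62.5%, 5.71% had a member within 50 kb and 0 were near an SHH-responsive gene. With a promoter window of 5 kb on each side 35.4% were intergenic and the median distance was 13.3 kb, and to protein-coding TSSs it was 13.5 kb. The GLI share was 1.03% with no mismatch, 12.4% in 400 bp and 18.4% over whole regions. The share with a neighboring member was 32.6% within 100 kb and 15.5% within 20 kb, and the members near an SHH-responsive gene were 13 within 500 kb and 2 within 20 kb. Leaving out 1 library moved the intergenic share from 28.6% to 34.4%, the median distance from 8.76 to 11.4 kb, the median GC content from 53.0% to 57.5%, the repeat share from 3.56% to 8.50%, the neighbor share from 26.0% to 83.8% and the members near an SHH-responsive gene from 6 to 97. The lowest score quintile held 51.7% members with a score of at least 50 and 58.9% with quintiles of the WT replicate 2 score, and the highest held 1.15% with a score of at least 50. With equal list sizes the held-out difference, WT minus Shh-/- in percentage points, went from -7.13 to 3.93 (picked from WT replicate 1 and Shh-/- replicate 1), from 1.79 to -19.3 (WT replicate 1 and Shh-/- replicate 2), from 16.6 to 10.9 (WT replicate 2 and Shh-/- replicate 1) and from 23.1 to -1.13 (WT replicate 2 and Shh-/- replicate 2). Without the members that have another copy 475 remained, and without the largest cluster 469. The causes of these changes were not tested beyond what the construction of each alternative shows. No paired analysis was possible because the results come from no test.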
